A study of Bombyx mori with 9 samples.

Results

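Cuticle protein genes BMORCPG16 (BGIBMGA002175), BMORCPG17 (BGIBMGA001862), CPG43 (BGIBMGA011713), BMORCPH21 (BGIBMGA011721) and CPH44 (BGIBMGA005303) were followed across silk glands of 3 silkworm strains. They are 5 of 15745 features in the table of expression values and 5 of its 179 rows named or described as cuticle proteins, of which 28 belong to the glycine-rich class (CPG) and 36 to the hypothetical class (CPH). The 5 were picked by name, with their FPKM in these same libraries already known, so that their differences between strains are given as a description with no test. The strains are A306, XH and A798 of the domestic silkworm Bombyx mori, raised under the same feeding conditions, with no other treatment named. Each strain gave 3 libraries, made from silk glands of larvae at day 5 of the fifth instar. The 2 gland weights stated for each sample averaged 0.688 ± 0.0207 g for A306, 0.974 ± 0.0085 g for XH and 1.28 ± 0.0309 g for A798 (SD, n = 3 samples). Whether a library stands for 1 animal, a pool or both sexes is not given, so the spread between libraries may be partly technical.

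Insect cuticle is a composite of chitin fibres and many secreted proteins, laid down by the epidermis and by other epithelia of ectodermal origin. The silk gland is such an epithelium, a modified labial gland, and its anterior part is a duct lined by a cuticular layer through which the liquid silk passes. Most cuticle proteins belong to the CPR family, which binds chitin through the Rebers and Riddiford consensus. The CPG proteins lack that consensus and are rich in glycine repeats. The CPH proteins are called hypothetical because they were assigned to the cuticle by general sequence features and fit none of the defined families. The role of single CPG and CPH proteins is largely unknown.

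Expression was given as FPKM, fragments per kilobase of transcript scaled to the mapped fragments of the library, which compares genes per length and carries no depth. The FPKM of a library summed to 502510 at the lowest and 587872 at the highest, and ribosomal RNA models took between 5.05% and 19.6% of that sum, the highest share being that of A798 replicate 3. Over the 4636 features with an FPKM of at least 1 in at least 3 libraries, log2(FPKM + 1) values correlated across genes at r = 0.961 to 0.966 within a strain and at 0.872 to 0.916 between strains; genes are not independent replicates. The median log2 change of all these features was 0.31 in A306 against A798, 0.19 in XH against A798 and 0.12 in A306 against XH, and under TMM scaling it was 0.01, 0.01 and -0.0020 in the same order. Calls with a limma adjusted p below 0.05 numbered 1759 higher and 445 lower in A306 against A798, 1191 higher and 372 lower in XH against A798, and 1071 higher and 622 lower in A306 against XH. The higher calls made up 79.8%, 76.2% and 63.3% of these totals, against 48.8%, 50.7% and 48.1% under TMM scaling and 47.6%, 44.1% and 54.0% with library medians made equal. In bulk tissue a smaller number of cells of a type and less RNA per cell cannot be told apart.

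The 5 genes followed 4 different strain patterns and spanned a wide range of levels. BMORCPG16 and BMORCPG17 stood high in XH alone, BMORCPH21 in XH and A306, CPG43 in A306 and XH to a similar degree, and CPH44 in A306. In A306 against A798 the libraries of the strains stood apart for 3 of the 5 genes, all 3 higher in A306, where 56.7% of all tested features stood apart, 45.4% as higher and 11.3% as lower. In XH against A798 all 5 stood apart as higher, where 46.3% of tested features stood apart, 34.9% as higher and 11.4% as lower. In A306 against XH 1 gene stood apart as higher and 3 as lower, where 50.1% of tested features stood apart, 32.1% as higher and 18% as lower. The values in these contrasts were known when the genes were picked, and nothing is read from the counts. All 5 passed the filter on low values, but BMORCPG16 and BMORCPG17 did so solely through the XH libraries.

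**Figure D1:**
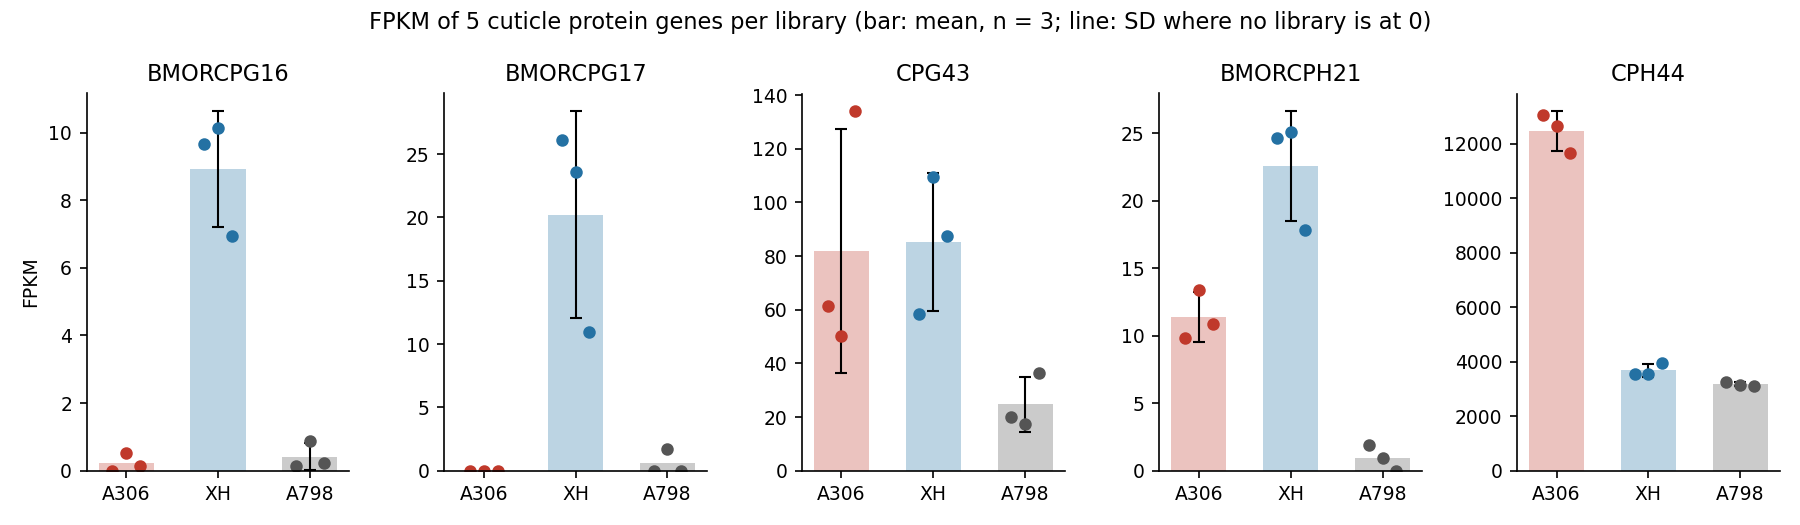
FPKM (y axis, linear, own scale in each panel) of the 5 cuticle protein genes in A306, XH and A798; points are libraries, bars are means of 3 libraries, and lines are the SD where no library is listed at 0. BMORCPG16 and BMORCPG17 are high in XH only, and CPH44 lies between 11663 and 13065 FPKM in A306 and at 3960 FPKM or less in the other strains' libraries.

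CPH44 was by far the most abundant of the 5, and in A306 one of the most abundant transcripts of the gland. Its FPKM was 13065, 12655 and 11663 in A306, against 3541, 3543 and 3960 in XH and 3269, 3148 and 3122 in A798. All A306 libraries stood far above the other 6, and the XH libraries stood slightly above the A798 ones without overlap. The means were 12461 ± 721 FPKM in A306, 3681 ± 241 in XH and 3180 ± 78.1 in A798 (SD, n = 3 each), so that A306 was 3.92 times A798 and 3.38 times XH. The log2 change was 1.97 ± 0.0562 (SE) in A306 against A798, or 1.66 above the median of all tested features, and 1.76 in A306 against XH. In XH against A798 it was 0.21, which lay 0.02 above the median of all tested features, and it was -0.014 under TMM scaling and -0.030 with library medians made equal. The order of A306 over the other strains held under each scaling tried, while that of XH over A798 did not.

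CPH44 ranked between 4 and 7 among all features of an A306 library, between 41 and 45 in XH and at 49 or 50 in A798. It took 2.15 ± 0.0968% of the summed FPKM in A306, 0.684 ± 0.0574% in XH and 0.592 ± 0.0479% in A798. A ratio to another gene of the same library does not depend on how libraries are scaled. Set against FIBL, which encodes the light chain of fibroin, a main silk protein, CPH44 reached 54.6%, 53.4% and 49.4% of its FPKM in A306, against 11.9%, 11.6% and 12.6% in XH and 16.4%, 15.2% and 15.9% in A798. By this ratio A306 was again highest, but XH lay below A798 in every library. FIBL itself stood at 23739 ± 171 FPKM in A306, 30547 ± 819 in XH and 20106 ± 600 in A798.

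CPH44 also outweighed the rest of the cuticle genes. The 174 other cuticle rows summed to 305 to 350 FPKM per A306 library, 620 to 653 per XH library and 312 to 352 per A798 library. CPH44 alone had 37.9 ± 1.54 times this sum in A306, 5.76 ± 0.290 times in XH and 9.44 ± 0.604 times in A798. The ranges of the summed level of the other cuticle genes overlapped between A306 and A798, and those of CPH44 did not.

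**Figure D2:**
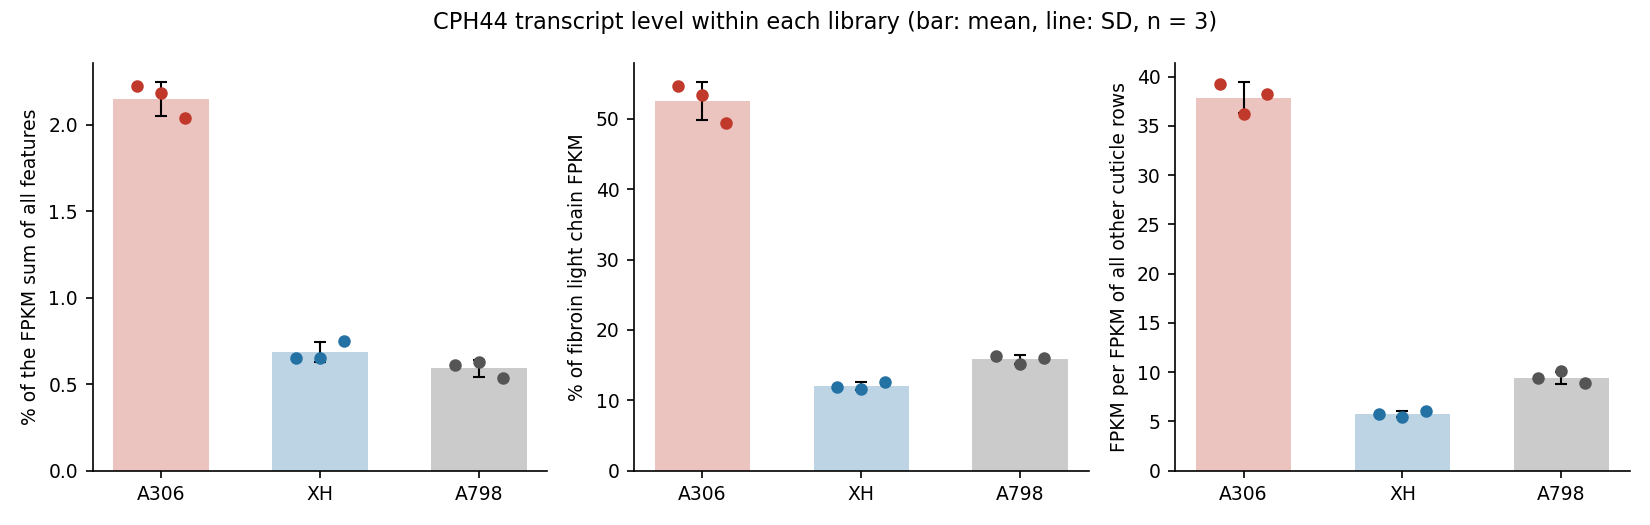
CPH44 in A306, XH and A798 as a percentage of the summed FPKM of all features (left), as a percentage of fibroin light chain FPKM (middle), and as a multiple of the summed FPKM of the 174 other cuticle rows (right); points are libraries, bars are means and lines are the SD (n = 3). A306 is highest in each panel, and XH lies below A798 in the middle and right panels.

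The identity of CPH44 rests on its description. The deposited table gives the gene name CPH43 to 2 rows, BGIBMGA005302, described as CPH43, and BGIBMGA005303, described as CPH44, and the RefSeq gene table has 1 gene on chromosome 8 with the symbol CPH43 and the synonym CPH44. The row described as CPH43 was low, at 5.48, 4.42 and 1.89 FPKM in A306, 3.4, 3.04 and 2.15 in XH and 3.19, 1.19 and 1.38 in A798. Its strains overlapped, and its log2 change of 0.74 in A306 against A798 did not pass the test (limma adjusted p = 0.124). How fragments were divided between the 2 models is not given.

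BMORCPG16 and BMORCPG17 were near the lower limit of the data in A306 and A798 and clearly present in XH. BMORCPG16 was listed at 0, 0.53 and 0.15 FPKM in A306, at 9.66, 10.1 and 6.95 FPKM in XH and at 0.13, 0.87 and 0.23 FPKM in A798. Every XH library stood above all 6 others, and A306 and A798 overlapped. The mean in XH, 8.91 ± 1.71 FPKM, was 21.7 times the A798 mean of 0.41 ± 0.401, a ratio that rests on A798 values below 1 FPKM. The log2 change in XH against A798 was 2.83 ± 0.253 (SE) with a pseudocount of 1 and 4.41 with one of 0.1. In A306 against XH it was -3.02 and -5.15 with these pseudocounts.

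BMORCPG17 had the same order. It was listed at 0 in all 3 A306 libraries, at 26.1, 23.6 and 10.9 FPKM in XH, and at 0, 1.75 and 0 FPKM in A798. The XH libraries stood apart from the others, replicate 3 being lower than the other two. The log2 change in XH against A798 was 3.83 ± 0.449 with a pseudocount of 1, 6.17 with one of 0.1, and 3.59 at the lowest when 1 library was left out. No fold is given against A306, where the gene was listed at 0; a value of 0 need not mean that no transcript was present, since 7 ribosomal protein genes were also listed at 0 in all 9 libraries.

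The glycine-rich genes BMORCPG16 and BMORCPG17 had similar patterns over the libraries. Within XH both were lowest in replicate 3, and so was BMORCPH21. BGIBMGA005149, BGIBMGA008439 and BGIBMGA004404 were also lowest there. These were picked for their likeness to BMORCPG16 or BMORCPG17 over the same libraries, so a shared low replicate is partly built in. BMORCPG17 had 2.70, 2.33 and 1.57 times the FPKM of BMORCPG16 in the 3 XH libraries. In A798 both were highest in replicate 2, the only A798 library in which BMORCPG17 was above 0. Over the 9 libraries their log2 values had a Pearson r of 0.988, a description that rests mainly on the step between XH and the other strains. Each was among the 3 features most like the other. The RefSeq gene table places them on chromosomes 15 and 19, so they are not neighbours. Another glycine-rich gene, CPG49 (BGIBMGA002176), was listed at 0 in all A306 libraries, at 1.09, 0.45 and 2.13 FPKM in XH, and at 0, 0.16 and 0 FPKM in A798, which was too low to be tested; it was singled out after its values were seen.

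Markers of other tissues also differed in XH, and their part in the levels of BMORCPG16 and BMORCPG17 was not tested. Genes of fat body and haemolymph proteins, 19 by name, summed to 70.9 to 77.3 FPKM in A306 libraries, 1800 to 1883 for XH and 622 to 641 for A798. Of 13 tested, 13 rose in XH against A798 (median log2 change 1.21), where 25.7% of all tested features were called higher and 8.02% lower. BGIBMGA004404, LSP-T and BGIBMGA008164 reached an FPKM of 1 solely in XH libraries, and SLP outside XH solely in A798 replicate 1 (1.18 FPKM). The filter thus favoured a rise of these genes in XH. In A306 against A798 11 fell (median -2.68), where 37.9% of all tested features were called higher and 9.6% lower. Of the 13 calls in XH against A798, 3 were lost under at least 1 alternative, those of SLP, BGIBMGA008164 and SP1, and so was the SLP call in A306 against A798. The most abundant over all libraries were the lipoprotein genes LP-C19, LP and BMO.682, though in A306 LP-C12 stood above each of them (20.1 FPKM, against 15.4, 11.1 and 17.5), and vitellogenin (VG) was listed at 0.01 FPKM or less in every library. Among 5 muscle genes, the sum was 72.1 to 81.7 FPKM in A306, 68.7 to 72.7 for XH and 38.5 to 44.0 for A798. Muscle actin A1 made up most of it, at 72.9 ± 3.74 FPKM in A306, 62.0 ± 2.65 in XH and 38.2 ± 2.95 in A798. Of 3 muscle genes tested, 2 rose in XH against A798 and 1 in A306 against A798, beside the shares of all tested features given above. MLC-2, 1 of the 2, reached an FPKM of 1 outside XH solely in A306 replicate 3 (1.21 FPKM), so the filter favoured its rise in XH. Haemocyte genes, 2 of them phenoloxidases and 1 hemocytin, summed to 2.32 to 3.23 FPKM in A306, 6.48 to 7.03 for XH and 2.02 to 2.60 for A798. Both tested, PPO1 and PRO-PO2, rose in XH against A798, beside the same shares of all tested features. PRO-PO2 reached an FPKM of 1 solely in XH libraries, so the filter favoured its rise in XH. Hemocytin (BGIBMGA006692), too low to be tested, went the other way, with means of 0.41 FPKM in A306, 0.12 in XH and 0.33 in A798. In A306 against A798, PPO1 rose (log2 change 0.53, adjusted p = 0.0176), a call that was lost under TMM scaling (adjusted p = 0.17), with library medians made equal (adjusted p = 0.339), without A306 replicate 3 and without A798 replicate 3 (adjusted p = 0.0557 and 0.0564), and PRO-PO2 fell (log2 change -0.66, adjusted p = 0.00278).

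The few rows matched for pigment and hardening of the epidermal cuticle were at or near 0. DDC, ebony and laccase genes were also looked for, but none was among the matched rows, so these were not followed. The 3 matched rows, among them tyrosine hydroxylase (TH) and a yellow gene (Y-Y), summed to 0.16 to 0.44 FPKM in A306, 0.04 to 0.14 for XH and 0.08 to 0.17 for A798, and 1 of them was listed at 0 throughout. The 3 rows matched for the midgut summed to 0.24 FPKM or less in every library. No row was matched for the trachea or for the sericins of the middle silk gland, so these were not followed.

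CPG43 was the most abundant of the 3 glycine-rich genes and varied widely among libraries of a strain. It stood at 61.5, 50.1 and 133.9 FPKM in A306, at 58.5, 109.6 and 87.5 FPKM in XH and at 20.2, 17.6 and 36.4 FPKM in A798. A306 and XH overlapped widely, and the libraries of both stood above all those of A798. The means were 81.8 ± 45.4 FPKM in A306, 85.2 ± 25.6 in XH and 24.7 ± 10.2 in A798 (SD, n = 3 each), or 3.31 times and 3.45 times the A798 mean. The log2 change was 1.63 ± 0.422 (SE) in A306 against A798 and 1.77 ± 0.422 in XH against A798. Without A306 replicate 3 the first became 1.21, and without A798 replicate 3 it became 1.93. Between A306 and XH the change was -0.14 ± 0.422, and it lay between -0.56 and 0.14 when 1 library was left out. The SD of A306 came to 55.5% of its mean, against 30.1% in XH and 41.2% in A798, while that of CPH44 came to 5.79%, 6.55% and 2.46%.

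BMORCPH21 was lowest in A798, intermediate in A306 and highest in XH. Its FPKM was 9.85, 13.4 and 10.9 in A306, 24.7, 25.1 and 17.9 in XH, and 1.93, 0.91 and 0 in A798. No 2 strains overlapped. The mean in A306, 11.4 ± 1.83 FPKM, was 0.505 times the XH mean of 22.6 ± 4.08. The log2 change was 2.79 ± 0.357 (SE) in A306 against A798, 3.71 ± 0.357 in XH against A798 and -0.92 ± 0.357 in A306 against XH. With a pseudocount of 0.1 the first 2 became 4.27 and 5.25, with A798 near 0. Within XH its libraries overlapped those of BMORCPG17 in FPKM.

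BMORCPH21 lies in a dense run of CPH genes on chromosome 11. In the order of the RefSeq gene table, CPH27 to CPH6 form a run of 23 CPH genes with 6 other genes between them, and 21 of the 23 had a row in the deposited table. Of these 21, 11 were listed at 0 in all libraries, 6 were above 0 but too low to be tested, and 4 were tested. For comparison, 5418 of all 15745 features were listed at 0 in all libraries and 4636 were tested. The neighbours on either side of CPH21, CPH22 and CPH20, were listed at 0 in all 9 libraries. The gene after CPH20 in the run, BMORCPH19 (BGIBMGA011761), stood at 3.10 ± 0.921 FPKM in A306, 7.58 ± 1.09 in XH and 2.69 ± 0.705 in A798. It rose in XH against A798 (log2 change 1.23 ± 0.209, limma adjusted p = 0.00287) and did not pass the test in A306 against A798 (0.14, adjusted p = 0.603), where BMORCPH21 stood apart.

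The other tested genes of the run had yet other patterns. BMORCPH10 (BGIBMGA011730) was at 1.52, 1.48 and 1.26 FPKM in A306, was listed at 0 in all XH libraries, and was at 0.55, 0 and 0 FPKM in A798. It rose in A306 against A798 (log2 change 1.06 ± 0.191, adjusted p = 0.0025) and against XH (1.27 ± 0.191, adjusted p = 0.00123), by limma. BMORCPH10 reached an FPKM of 1 solely in A306 libraries, so the filter favoured its rise in A306. BMORCPH27 (BGIBMGA011714), which the table also describes as neuropeptide-like 4A, was erratic, at 18.0, 25.1 and 18.3 FPKM in A306, 0, 34.3 and 0 FPKM in XH and 23.7, 0 and 7.11 FPKM in A798. It passed no test. Only the order of genes was taken from RefSeq, whose assembly is not known to be the one behind the deposited table.

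**Figure D3:**
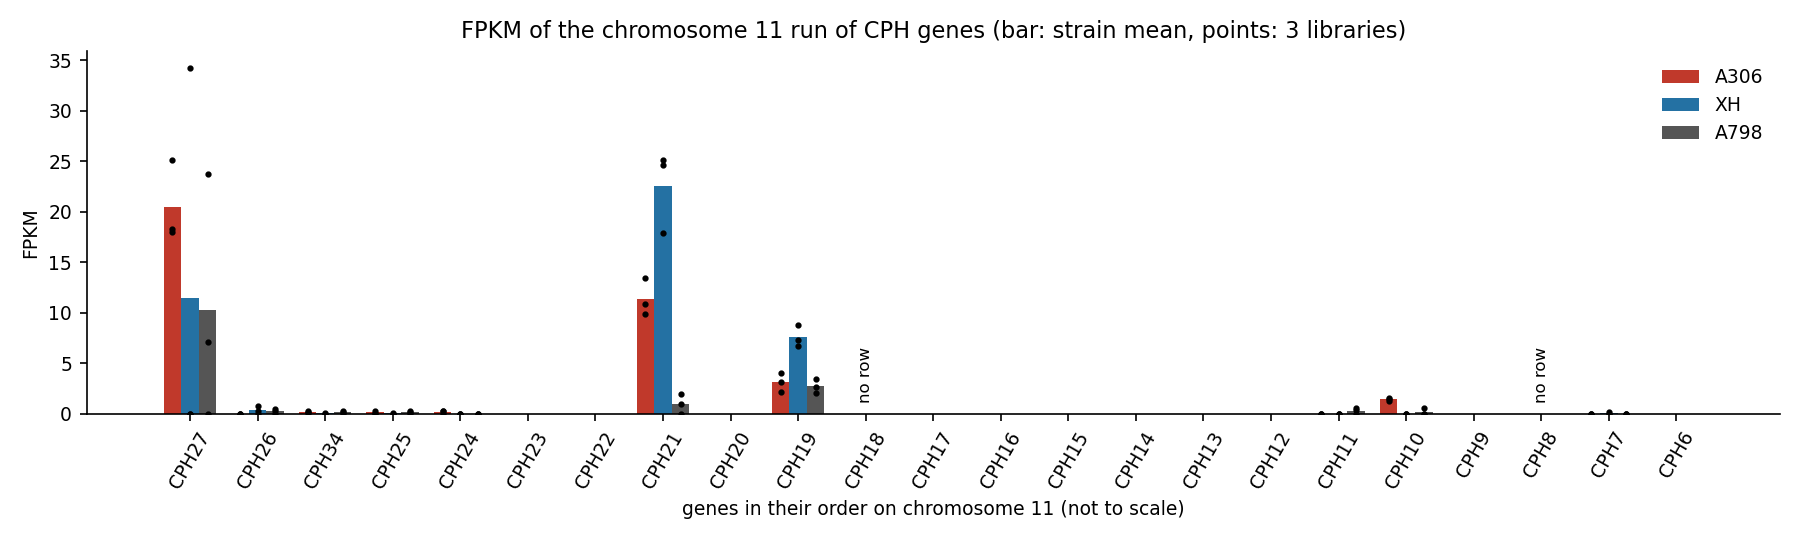
FPKM (y axis, linear) of the run of CPH genes on chromosome 11, in their order in the RefSeq gene table (x axis, not to scale), in A306, XH and A798; bars are strain means, points are the 3 libraries, and genes with no row in the deposited table are marked. BMORCPH21 stands at 22.6 FPKM in XH, with CPH22 and CPH20 on either side listed at 0.

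Among the rest of both classes few genes passed the filter. Of all 15745 features, 5418 were listed at 0 in all libraries and 4636 were tested. Of 25 other CPG rows, 17 were listed at 0 in all libraries, 7 stayed below the filter and 1 was tested. That gene, CPG48 (BGIBMGA001331), stood at 2.64, 1.75 and 0 FPKM in A306, 1.98, 3.77 and 2.89 in XH and 0, 1.78 and 2.41 in A798, and passed no test. Of 34 other CPH rows, 17 were listed at 0, 13 stayed below the filter and 4 were tested, all of them described above. No untested CPG or CPH row exceeded 2.13 FPKM in any library.

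The other tested cuticle genes, 20 in all and 14 of them CPR genes, moved in both directions in A306 against A798. There 5 rose and 5 fell, while 10 missed the threshold, and the median log2 change was 0.11. Of all tested features 47.5% were called, 37.9% higher and 9.6% lower. The count of calls was between 8 and 10 when 1 library was left out. Under TMM scaling and with library medians made equal the split was 3 higher and 7 lower. BMORCPR56 and BMORCPH10 rose most. The filter favoured some of these calls. Among the genes named here, BMORCPH10 reached an FPKM of 1 solely in A306, BMORCPR56 solely in A306 and XH, and BMORCPR101 solely in A798. BMORCPR56 was at 2.09, 0.86 and 2.26 FPKM in A306 and was listed at 0 in all A798 libraries (log2 change 1.41, limma adjusted p = 0.00141). BMORCPR101, BMORCPR23, BMORCPR43 and BMORCPR32 fell most. BMORCPR101 was at 0, 0.25 and 0.13 FPKM in A306, against 23.7, 26.1 and 22.6 FPKM in A798 (log2 change -4.48, adjusted p = 2.12e-07). BMORCPR43 was at 5.99 ± 2.29 FPKM in A306, against 27.4 ± 7.51 in A798 (log2 change -2.05, adjusted p = 0.000658). The BMORCPR32 call (-0.88, adjusted p = 0.0243) was lost without any 1 of the 3 A306 libraries (adjusted p = 0.0577 to 0.0597), with no filter on low values (adjusted p = 0.0564) and with a replicate block (adjusted p = 0.0508).

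In XH against A798 the other cuticle genes moved mostly upward. Of the 20, 11 rose and 1 fell, while 8 missed the threshold, and the median log2 change was 0.82. Of all tested features 33.7% were called, 25.7% higher and 8.02% lower. It was 11 higher and 1 lower under TMM scaling, 10 and 1 with library medians made equal, 11 and 2 without A798 replicate 2, and 13 and 5 of 80 genes with no filter on low values. CPR4 (BGIBMGA002548) was at 53.1 ± 8.78 FPKM in XH and 13.7 ± 7.75 in A798 (log2 change 2.01, limma adjusted p = 0.00408). BMORCPR32, BMORCPH19 and BMORCPR56 were the next highest, with log2 changes of 1.67, 1.23 and 1.19. The most abundant, BMWCP11, was at 305 ± 22.2 FPKM in XH and 137 ± 4.74 in A798 (1.15, adjusted p = 4.32e-05). BMORCPR101 was the 1 gene that fell, at 0.24, 0 and 0 FPKM in XH and 23.7, 26.1 and 22.6 FPKM in A798 (-4.54, adjusted p = 2.55e-07). It reached an FPKM of 1 solely in A798 libraries, so the filter favoured its fall. BMORCPT2, which rose, reached it solely in XH, and its call was lost with library medians made equal (adjusted p = 0.0616). BMORCPR32 reached it outside XH solely in A798 replicate 2 (1.82 FPKM), and BMORCPR56 in no A798 library. The filter thus favoured a rise of these genes in XH.

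In A306 against XH 2 of the 20 rose and 9 fell, while 9 missed the threshold, and the median log2 change was -0.83. Of all tested features 36.5% were called, 23.1% higher and 13.4% lower. BMORCPH10, described above, was 1 of those that rose. The filter favoured its rise, and also the falls of BMORCPR32 and BMORCPT2, which passed it through the XH libraries. BMORCPR32, BMORCPR43, BMORCPR23 and BMORCPR34 fell most; BMORCPR34 was at 4.52 ± 1.29 FPKM in A306 and 15.2 ± 0.799 in XH (log2 change -1.58, limma adjusted p = 0.000114). The 3 comparisons share libraries pairwise, so their counts are not independent.

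**Figure D4:**
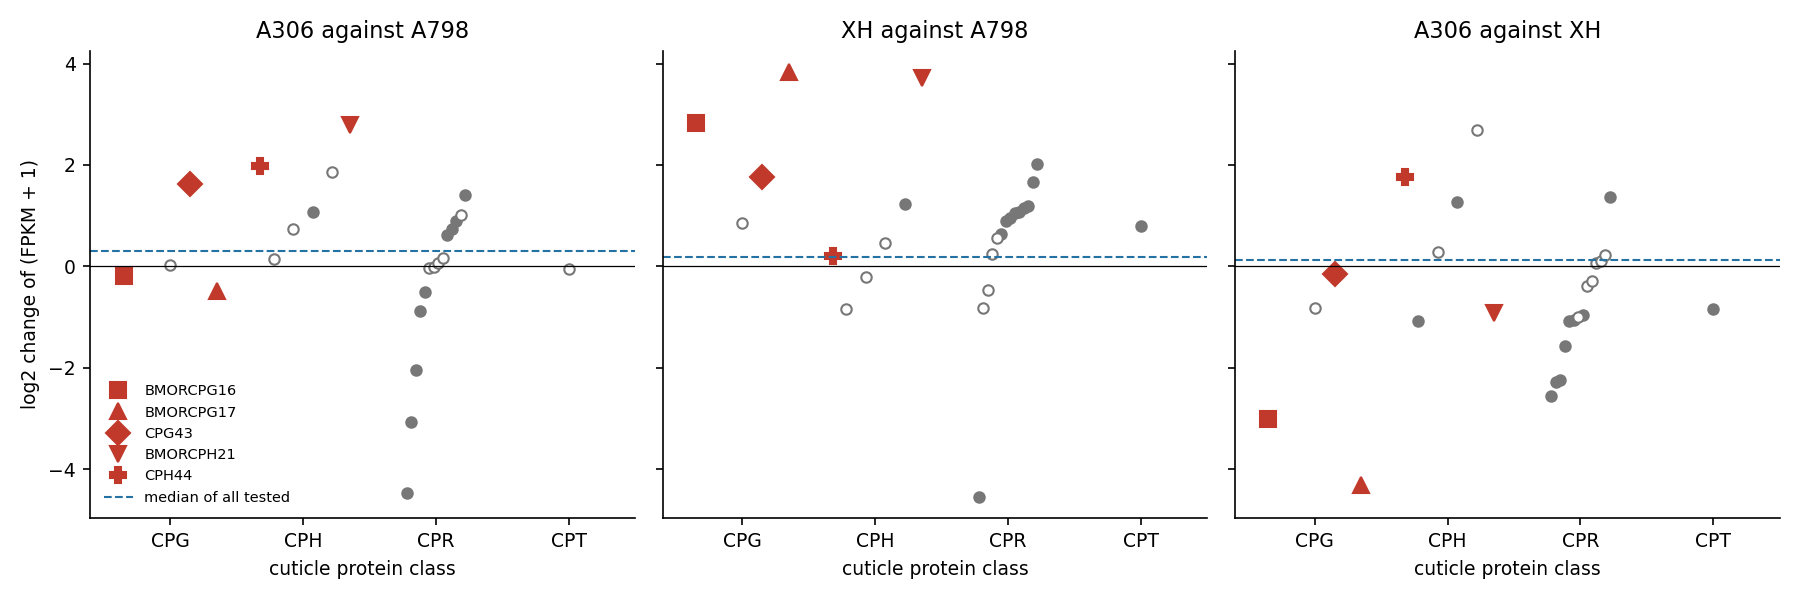
Log2 change of (FPKM + 1) (y axis) in the 3 comparisons for the tested cuticle genes by class (x axis); red symbols are the 5 genes described, filled grey points are other cuticle genes with a limma adjusted p below 0.05, open points those that did not pass, and the dashed line is the median of all 4636 tested features. BMORCPG16, BMORCPG17 and BMORCPH21 lie above all other cuticle genes in XH against A798, and CPH44 lies close to the dashed line there.

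Enzymes that act on chitin, the polysaccharide partner of cuticle proteins, did not share one direction. Of 8 rows matched by description 4 were tested. GLCNACASE1 (BGIBMGA011646), described as a beta-hexosaminidase, an enzyme type that can release terminal sugars from chitin oligomers, was at 158 ± 9.65 FPKM in A306, 125 ± 6.22 in XH and 176 ± 8.14 in A798. It fell in XH against A798 (log2 change -0.49, limma adjusted p = 0.000547) and did not pass the test in A306 against A798 (-0.15, adjusted p = 0.0758). In A306 against XH it rose (0.34, adjusted p = 0.00292), a call lost under TMM scaling (adjusted p = 0.0732). GLCNACASE3 (BGIBMGA014116), of the same enzyme type, was at 0.73 ± 0.151 FPKM in A306, 0.78 ± 0.165 in XH and 1.61 ± 0.247 in A798. It fell in A306 against A798 (log2 change -0.59, adjusted p = 0.00948) and in XH against A798 (-0.55, adjusted p = 0.0179). GLCNACASE3 reached an FPKM of 1 solely in A798 libraries, so the filter favoured both falls. The XH call was lost with no filter on low values (adjusted p = 0.0551) and without XH replicate 2 or 3 or A798 replicate 1 or 2 (adjusted p = 0.051 to 0.0574). The beta-hexosaminidase gene BGIBMGA004194 rose in A306 against A798 (2.20 ± 0.385 and 0.91 ± 0.0917 FPKM, log2 change 0.74, adjusted p = 0.00261) and against XH (1.11 ± 0.159 FPKM in XH, log2 change 0.59, adjusted p = 0.00964). The chitinase-like gene IDGF, named for an imaginal disc growth factor, was above 0 in 1 A306, 1 XH and 3 A798 libraries and passed no test.

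The features most like each of the 5 genes were found by Pearson r of log2(FPKM + 1) over the 9 libraries, 3 of each strain, among all tested features. For CPH44 the closest was the ecdysone oxidase gene BGIBMGA000158, whose product oxidises the moulting hormone ecdysone (r = 0.998), at 5542 FPKM in A306, 2371 in XH and 2216 in A798. The small heat shock protein gene HSP21.4 was the fourth (r = 0.996), at 1205 FPKM in A306, 829.9 in XH and 792 in A798. The other 3, BGIBMGA001323, BGIBMGA013909 and BGIBMGA005118, carry no description. For BMORCPH21 the closest was a nucleoplasmin gene, BGIBMGA002309, of a family of histone chaperones (r = 0.988), at 83.4 FPKM in A306, 95.9 in XH and 48.4 in A798, and the next 4 carry no description.

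CPG43 had the least close partners. Its nearest was YIPF6 (BGIBMGA005216), a Golgi membrane protein in vertebrates (r = 0.962), at 20.1 FPKM in A306, 22.6 in XH and 13.4 in A798. A gene described as Vps23 (BGIBMGA004136), in yeast a subunit of the endosomal sorting complex, was the fourth (r = 0.933). The features nearest to BMORCPG16 and BMORCPG17 were each other and rows without description, together with the 30K lipoprotein gene BGIBMGA004404 for BMORCPG17 (r = 0.979), which was listed at 0.10, 0 and 0 FPKM in A306, 2.06, 1.7 and 1.3 in XH and 0.29, 0.66 and 0.18 in A798. Between the 5 genes, CPG43 and BMORCPH21 had r = 0.758, BMORCPG16 and BMORCPH21 0.632, and CPH44 and BMORCPG17 -0.50. Many other features were closer. BMORCPH21 ranked 450 among tested features by likeness to CPG43 and 619 by likeness to BMORCPG16. By likeness to BMORCPH21, CPG43 ranked 756 and BMORCPG16 1239. The 9 libraries fall into 3 strains and genes of a library share its scaling, so these values rest largely on the 3 strain means.

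**Figure D5:**
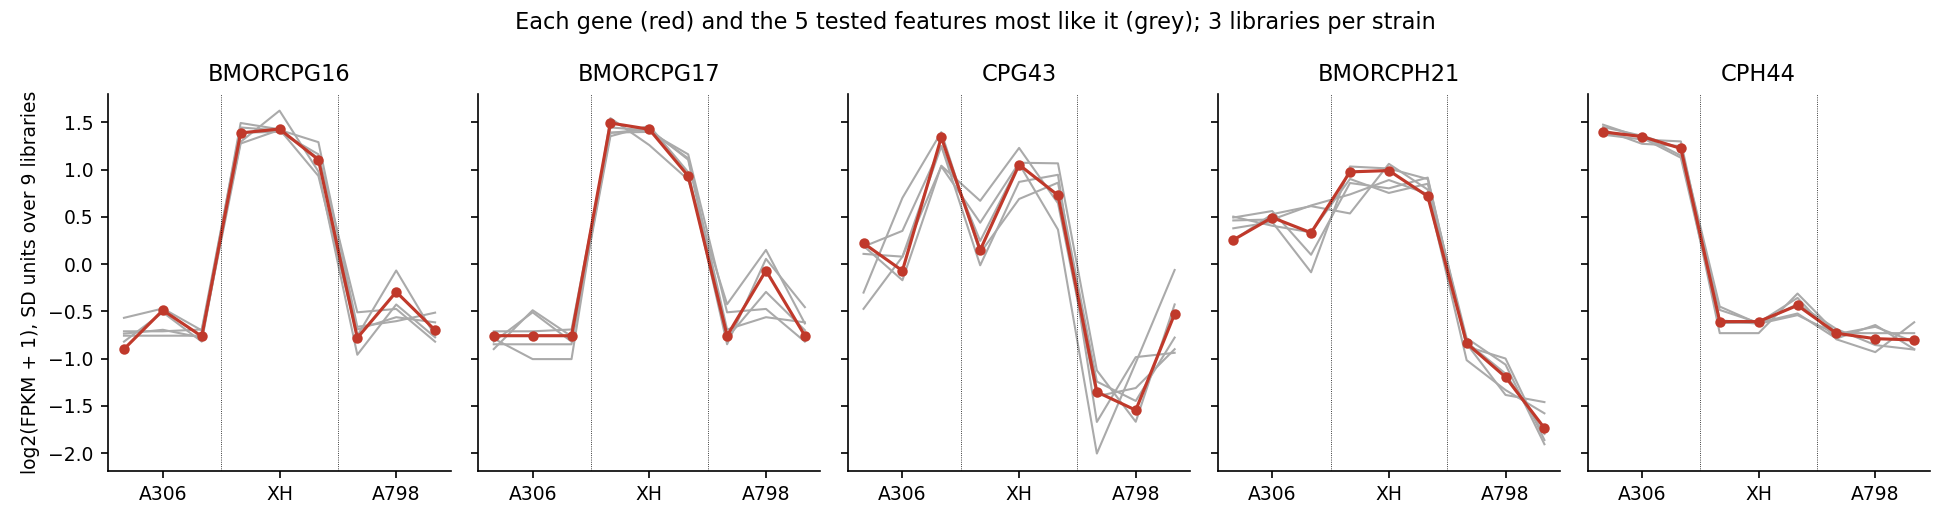
Log2(FPKM + 1) in SD units over the 9 libraries (y axis) of each of the 5 genes (red points) and of the 5 tested features with the highest Pearson r to it (grey lines), for the 3 libraries each of A306, XH and A798 (x axis); lines only join the values of one feature. CPH44 and its nearest features step down after A306, and BMORCPG16 and BMORCPG17 peak in XH.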

How the data were processed

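Silk gland RNA of 9 libraries, 3 per strain, was analysed from the table of FPKM that the authors deposited, with 2 decimals and 15745 features, 14623 of them with BGIBMGA and 1122 with ENSRNA identifiers. Tools in the submitters' processing notes are StringTie (1.3.3b), DESeq2 (1.24.0) and fastp (0.19.5). The sources used here name no aligner, genome build or annotation. Another deposited table labelled as raw counts also held FPKM, for 5 genes, equal to the first (largest difference 0), and was not used further. FPKM give no depth. Of 342 low features searched for the step of a single fragment, 12 had values within 1.25-fold of each other, too few to recover reads, so no count test was run. FPKM of near-identical paralogs are uncertain.

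Values were taken as log2(FPKM + 1), which understates changes of low genes, and a feature was tested if at least 3 libraries reached an FPKM of 1, which left 4636. limma 3.58.1 (R 4.3.3) fitted a mean per strain with an intensity trend, and two-sided p-values were adjusted by Benjamini-Hochberg over these features per comparison (threshold 0.05). The procedure was tested on simulated data. Standing apart means that all 3 libraries of one strain lie beyond the 3 of the other. The 5 genes and the gene lists were chosen with earlier results of these data known, and lists were matched by name and description. Besides the 5, the text names the tested CPG and CPH genes, up to 4 called other cuticle genes with the highest and lowest change per comparison (some are not reported here), the tested chitin genes, up to 3 abundant members of each marker list and the 5 features most like each gene. BMWCP11, BMORCPT2, CPG49, CPH41, BMORCPH26, LP-C12, low markers and markers whose calls were lost were added after their values were seen. No identifier (0) matched the RefSeq gene table (ASM3026992v2), so it was matched by symbol, for 4 of the 5 genes, and used for names and order. Alternatives were another pseudocount, other filters, TMM scaling (trimmed mean of log ratios between libraries), library medians made equal, a replicate block and leaving out each library.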

Additional observations from a re-analysis of the deposited data

How the results depend on the processing

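Over 15 alternatives for each change of the 5 genes (225 values in all), 212 values moved by less than the spread between replicates, 11 moved by more and 2 turned the sign of a change whose strains stood apart. Many of the 212 could not move. Other filters, the replicate block and leaving out a library of the strain outside the comparison cannot alter a difference of strain means. Only another pseudocount, another scaling and leaving out a library of a compared strain could alter a change. In all 6 values changed sign or became 0. The other 4 belong to changes whose strains overlapped: BMORCPG16 and BMORCPG17 in A306 against A798 without A798 replicate 2 (0.03 and 0, against -0.19 and -0.49), and CPG43 in A306 against XH without A306 replicate 2 or XH replicate 2 (0.14 and 0.06, against -0.14). The first 2 are CPH44 in XH against A798, at -0.014 under TMM scaling and -0.030 with library medians made equal, against 0.21 on the deposited scale, and the alternatives differ only in the scaling of libraries. The counts of features called stayed within 1.5 times the main count under every alternative run; the lowest in A306 against A798 was 1551 under TMM scaling, against 2204. Of the counts of other cuticle genes called, 1 moved further: in A306 against XH it was 6, against 11, with an FPKM of at least 5 in 3 libraries, where 11 and not 20 such genes were tested. Of 86 calls of other cuticle, chitin and marker genes, 13 were lost under at least 1 alternative and 0 reversed. Libraries with the same replicate number had deviations from their strain means that correlated at 0.00039 to 0.0626, and not every library correlated best with its own number, so the numbers were not taken as pairs. With the replicate block, features called numbered 2080 in A306 against A798, 1388 in XH against A798 and 1589 in A306 against XH, where the fit without it gave 2204, 1563 and 1693. Other cuticle genes called numbered 10, 12 and 11 with the block and without it, but in A306 against A798 the split was 6 higher and 4 lower with the block, against 5 and 5, and the BMORCPR32 call was lost (adjusted p = 0.0508). Depth is unknown, and 3 libraries per strain limit precision.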

Other observations

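The deposited table holds 2 rows named BMORCPH26 (BGIBMGA011767 and BGIBMGA014293) with identical values in all 9 libraries, at 0 FPKM in A306, 0.70, 0.26 and 0 FPKM in XH, and 0.24, 0 and 0.43 FPKM in A798. They were the 2 cuticle rows above 0 that shared all values. The hypothetical class gene CPH41 (BGIBMGA009344), too low to be tested, was at 0.14, 0.20 and 0.30 FPKM in A306, 0.22, 0.38 and 0.27 FPKM in XH and 0.72, 1.22 and 0.90 FPKM in A798. All A798 libraries of CPH41 stood above the other 6, a strain order that none of the 5 genes described had; it was singled out after its values were seen.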
